A study of Rattus norvegicus with 3 samples.

Results

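The genes described here are 8 genes of cholesterol metabolism, taken by gene symbol from the 18425 genes of the deposited table. Hmgcs1, Idi1, Fdft1, Sqle, Lss and Dhcr7 encode 6 enzymes of cholesterol synthesis, Insig1 encodes a sterol-dependent brake on the pathway, and Abca1 encodes an exporter of cholesterol. No member is an uptake receptor, so uptake is covered below only by genes outside the 8. Retinas came from wild-type Sprague Dawley rats and were taken at P4. The rats had received 1 μl into the vitreous at P1, either citrate buffer at pH 4.5 or 10 μg streptozotocin (STZ) made up in that buffer. A further control received saline, for which the paper gives no volume or day. STZ is a glucosamine-nitrosourea that alkylates DNA. There was 1 library per condition, and the number of animals or eyes behind each library is not given in the sources used here. In the study's work on retinal function and structure the buffer went into the fellow eye of the STZ animals, and whether the sequenced retinas were paired in this way is not given in the sources used here. No difference below therefore has a replicate check, and no p-value was computed. The intervals cover counting error only, and they compare the libraries, not the treatments.

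Cholesterol is made from acetyl-CoA by way of mevalonate, isoprenoids, squalene and lanosterol. When sterol in the endoplasmic reticulum is low, the escort protein SCAP carries the transcription factors SREBP1 and SREBP2 to the Golgi, where they are cleaved and released to switch on the genes of sterol synthesis and uptake. INSIG proteins hold SCAP back when sterol is plentiful, and Insig1 is itself an SREBP target. When oxysterols accumulate, the LXR receptors switch on Abca1, Abcg1 and Apoe, whose products move cholesterol out of cells. In the retina, cholesterol is both made locally and taken up from lipoproteins, and glia and macrophages carry out much of its transport.

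SREBP target promoters commonly carry a CCAAT box, the site of the factor NF-Y, close to the sterol element, so the stretches that hold CCAAT boxes are shown for the members that have them. The sequences are from RefSeq on build GRCr8, read 5′ to 3′ along the gene, with CCAAT on either strand (ATTGG in the orientation printed) in capitals. For Abca1, the member that differed from the rest, the capitals mark an E-box, CACGTG.
Hmgcs1, chr2:53382086-53382205, plus strand: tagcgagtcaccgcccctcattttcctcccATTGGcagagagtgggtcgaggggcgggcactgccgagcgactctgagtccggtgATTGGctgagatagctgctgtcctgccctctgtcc
Idi1, chr17:66547525-66547620, minus strand: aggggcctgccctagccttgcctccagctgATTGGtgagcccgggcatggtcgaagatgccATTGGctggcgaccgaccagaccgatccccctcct
Lss, chr20:12118278-12118342, minus strand: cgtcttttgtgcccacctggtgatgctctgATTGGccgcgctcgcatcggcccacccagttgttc
Insig1, chr4:8057928-8057992, minus strand: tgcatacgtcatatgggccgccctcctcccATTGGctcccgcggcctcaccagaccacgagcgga
Abca1, chr5:72596594-72596653, minus strand: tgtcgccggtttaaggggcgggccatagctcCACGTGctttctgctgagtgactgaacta

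The 250 bases before each start were searched on both strands in the 6 members with an entry, which are these 5 and Dhcr7. The promoter set used here held no entry for Sqle or Fdft1. CCAAT was found in 4 of the 6, at 2 positions in Hmgcs1 and in Idi1 and at 1 in Lss and in Insig1. Among 12 promoters of other sterol synthesis enzymes, 10 held it, against 34.0% of all 33469 promoters of the same length and 36.1% of the 7550 promoters of genes with a mean of at least 500 reads here. The GC box GGGCGG, the site of Sp1, was found in 5 of the 6 members and in 11 of the 12 other enzymes, against 30.5% of all promoters and 60.5% of those of the well-covered genes. The palindrome CACGTG was found in 2 of the 6, Insig1 and Abca1, and in 1 of the 12 other enzymes, against 5.59% of all promoters and 8.36% of those of the well-covered genes. The sterol element, searched as TCACNCCAC, was in 0 of the 6 windows, in 0 of the 12 of the other enzymes and in 0.974% of all promoters. Only exact matches to these letters within the 250 bases were taken. An element that departs from them or lies elsewhere would be missed, so the 0 does not show that these genes lack one. These are matches of letters, not measured sites, and the GC boxes of Dhcr7 overlap each other.

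The libraries held 21992749 reads for buffer, 21977876 for saline and 22031287 for STZ, summed over genes. The tissue label was checked against 10 genes of retinal progenitors and neurons, which were all detected and whose summed level was 2976, 2874 and 2904 CPM, reads scaled to a common library size, in buffer, saline and STZ. Genes of tissues next to the retina differed among the libraries. The summed CPM of 7 ciliary and iris epithelium genes was 171, 453 and 150 in buffer, saline and STZ, and that of 8 lens genes was 8.73, 23.6 and 115. Most lens reads in STZ came from Cryaa, Cryba1 and Crygd, with 928, 731 and 519. Other lens genes did not follow the sum: Mip had 73, 73 and 86 reads and Cryab 9, 81 and 64. The 5 blood genes in the table summed to 21.1, 26.9 and 15.6 CPM. Microglia, pericyte and endothelial markers also differed in STZ and are given beside the results they touch. In whole retina, fewer cells of a type and less RNA per cell cannot be told apart.

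**Figure D1:**
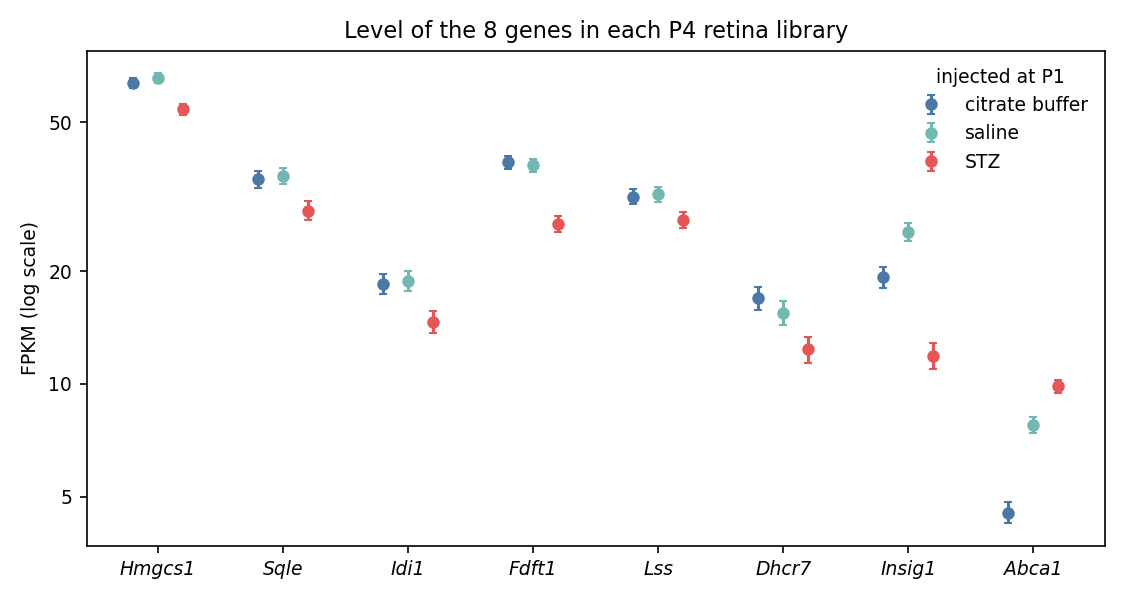
FPKM of each of the 8 genes (log scale) in the buffer, saline and STZ libraries, 1 library per condition, with bars for the 95% Poisson counting interval. The 6 enzymes and Insig1 were lowest in STZ, and Abca1 was lowest in buffer and highest in STZ.

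Levels between genes are compared in FPKM, which scales reads for transcript length and library size. In the buffer library the order was Hmgcs1, Fdft1, Sqle, Lss, Insig1, Idi1, Dhcr7 and Abca1, from 63.9 down to 4.53 FPKM. Insig1 at 19.3 FPKM (95% Poisson interval 18.0 to 20.5) and Idi1 at 18.5 (17.4 to 19.7) were not separated by counting error, and neither were Idi1 and Dhcr7 at 16.9 (15.8 to 18.1). In the STZ library Sqle at 29.1 (27.4 to 30.8), Lss at 27.4 (26.1 to 28.8) and Fdft1 at 26.8 FPKM (25.6 to 28.1) overlapped, although Fdft1 had ranked above both in buffer. Dhcr7 at 12.4 FPKM and Insig1 at 11.9 also overlapped in STZ. Abca1 had the lowest FPKM of the 8 genes in all 3 libraries, and its distance from the next gene was smallest in STZ.

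The comparison of STZ with its vehicle asks how the neonatal retina differed 3 days after the injection. All 6 enzymes and Insig1 were lower in the STZ library than in either control, and Abca1 was higher. A count ratio here divides the fraction of reads that fell on a gene in 1 library by that in another, and its 95% interval is the exact Clopper-Pearson one. By that interval 7 of the 8 members were lower and 1 was higher in STZ against buffer, where 18.8% of the 14886 genes with a mean of at least 10 reads were lower and 26.2% were higher. Against saline the members gave the same counts, beside 23.5% lower and 26.9% higher among all genes. All 8 members had a mean above 500 reads, and among the 8196 genes with that depth 26.3% were lower and 29.2% higher than in buffer, and 30.5% lower and 32.0% higher than in saline. Genes lower than both controls were 14.8% of those tested and genes higher than both 19.4%, and the comparisons share the STZ library. The median count ratio of the 8 members was 0.809 against buffer and 0.805 against saline, and that of all tested genes was 1.03 and 1.01. The members were chosen with earlier results of these data known, so the values of all genes are a background and not a test.

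The fold rule of the study's methods, (FPKM + 1)/(FPKM + 1) below 0.65 or above an upper limit close to the inverse of 0.65, was passed by few of them. In STZ against buffer it was passed downward by Insig1, where 1.04% of all genes passed, and upward by Abca1, where 2.25% passed. Against saline it was passed downward by Insig1 alone, with a background of 1.75%, and upward by no member, with a background of 2.04%. The 6 enzymes had folds from 0.694 for Fdft1 to 0.871 for Lss against buffer and from 0.706 to 0.859 against saline, all short of 0.65. They are given below in pathway order.

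Hmgcs1 (gene identifier 29637) encodes the cytosolic HMG-CoA synthase, which makes HMG-CoA, an early intermediate of the pathway. It had 4380 reads (buffer), 4496 (saline) and 3712 (STZ). Both controls were above STZ, with a count ratio of 0.846 against buffer (0.810 to 0.884) and 0.824 against saline (0.788 to 0.860), and they differed from each other by less than the counting error, 1.03 (0.985 to 1.07).

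Idi1 (89784) encodes isopentenyl-diphosphate isomerase, which balances the C5 isoprenoid units. It had 1051 reads in buffer, 1067 in saline and 835 in STZ, and STZ was below both controls. The ratio was 0.793 against buffer (0.723 to 0.869) and 0.781 against saline (0.712 to 0.856).

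Fdft1 (29580) encodes squalene synthase, the enzyme that commits farnesyl diphosphate to sterols. It had 2516, 2469 and 1729 reads, the lowest ratio of the 6 enzymes, 0.686 against buffer (0.645 to 0.730) and 0.699 against saline (0.657 to 0.743). Only 4.40% of the tested genes had a lower ratio against buffer and 7.05% against saline.

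Sqle (29230) encodes squalene epoxidase, the first oxygen-dependent step. Its reads numbered 1418 (buffer), 1444 (saline) and 1171 (STZ), again with STZ lowest. The ratio was 0.824 (0.762 to 0.891) with buffer as the control and 0.809 (0.748 to 0.874) with saline.

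Lss (81681) encodes lanosterol synthase, which closes the sterol rings. It had 1823, 1848 and 1584 reads, and the smallest difference of the 6 enzymes, with ratios of 0.867 (0.810 to 0.928) and 0.855 (0.799 to 0.915). Its interval against buffer did not overlap that of Fdft1, so the enzymes differed in their ratios by more than counting error.

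Dhcr7 (64191) encodes 7-dehydrocholesterol reductase, which makes cholesterol in the last step of one branch. Buffer gave 820 reads, saline 756 and STZ 607. The ratio was 0.739 against buffer (0.664 to 0.822) and 0.801 against saline (0.719 to 0.892), and saline and buffer were not separated, 0.923 (0.835 to 1.02).

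**Figure D2:**
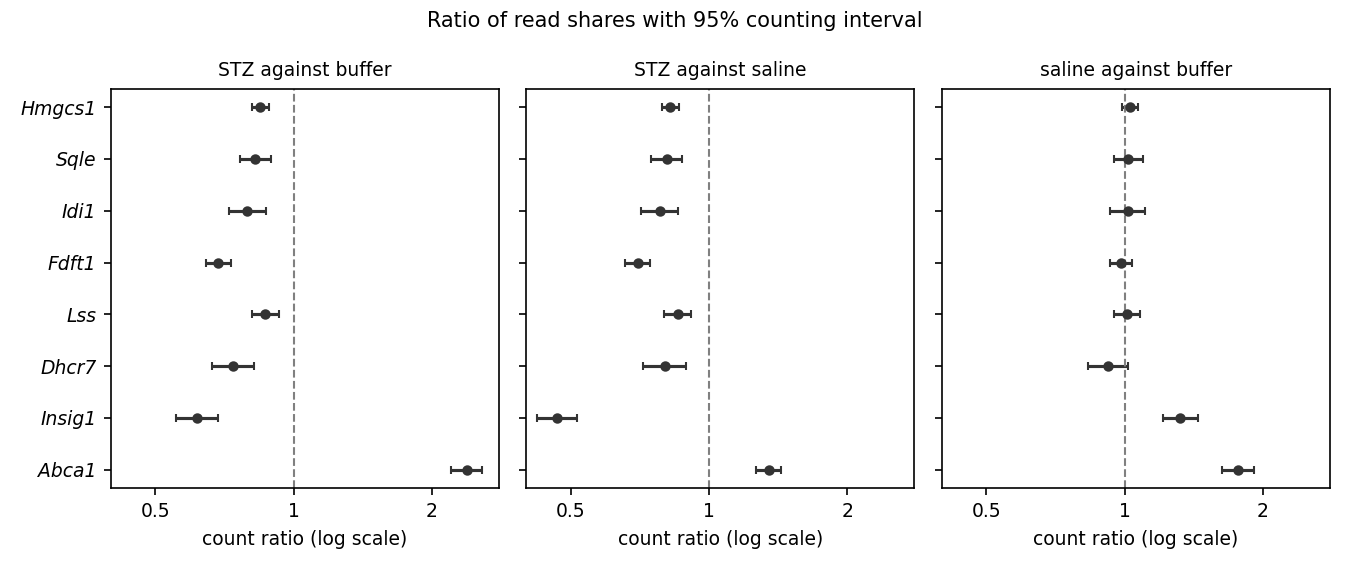
Count ratio (log scale, points) with its 95% counting interval (bars) for each gene, in 1 panel per comparison: STZ over buffer, STZ over saline, and saline over buffer. The 6 enzymes sit below 1 in both STZ panels and their intervals include 1 between the controls, whereas Insig1 and Abca1 lie above 1 in saline against buffer.

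The controls were compared with each other because a difference between STZ and 1 control can come from that control. In saline against buffer, 6 of the 8 members had intervals that included 1, and these were the 6 enzymes, with ratios from 0.923 for Dhcr7 to 1.03 for Hmgcs1. The other 2, Insig1 and Abca1, were higher in saline, where 15.9% of the tested genes were higher and 12% lower. Abca1 alone passed the fold rule between the controls, at 1.58, where 1.0% of genes passed upward and 0.429% downward. Genes lower in STZ than in both controls with no separation between the controls, as the 6 enzymes were, made up 9.65% of the tested genes.

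Insig1 (64194) encodes an anchor protein of the endoplasmic reticulum that retains SCAP when sterol is plentiful. It had 927 reads in buffer, 1226 in saline and 573 in STZ, and none of the 3 libraries overlapped by counting error. The ratio was 0.617 against buffer (0.555 to 0.686) and 0.466 against saline (0.422 to 0.515), and 1.32 in saline against buffer (1.21 to 1.44). The fold by the rule was 0.636 and 0.486. It had the lowest ratio of the 8 members in both STZ comparisons, with 2.82% of tested genes lower against buffer and 2.04% against saline. The choice of control moved its value beyond its counting interval, and against the mean of both controls the ratio was 0.531.

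Abca1 (313210) encodes the transporter that loads cholesterol and phospholipid onto apolipoproteins. It had 926 reads in buffer, 1636 in saline and 2211 in STZ, so the order was buffer, saline, STZ with no overlap of counting intervals. The ratio was 2.38 against buffer (2.21 to 2.58), 1.35 against saline (1.26 to 1.44) and 1.77 in saline against buffer (1.63 to 1.92). Genes higher in all 3 of these comparisons were 1.44% of those tested. Its fold was 1.96 against buffer, past the rule, and 1.24 against saline, short of it. Read count and FPKM did not move in step for this gene. The transcript length implied by the reads behind its FPKM was 9.30 kb in buffer, 9.61 in saline and 10.2 in STZ, and the FPKM ratio of STZ to buffer was accordingly 2.17, below the interval of the count ratio. For the 6 enzymes and Insig1 the implied length differed little among libraries, by most for Dhcr7, 2.20, 2.22 and 2.23 kb.

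**Figure D3:**
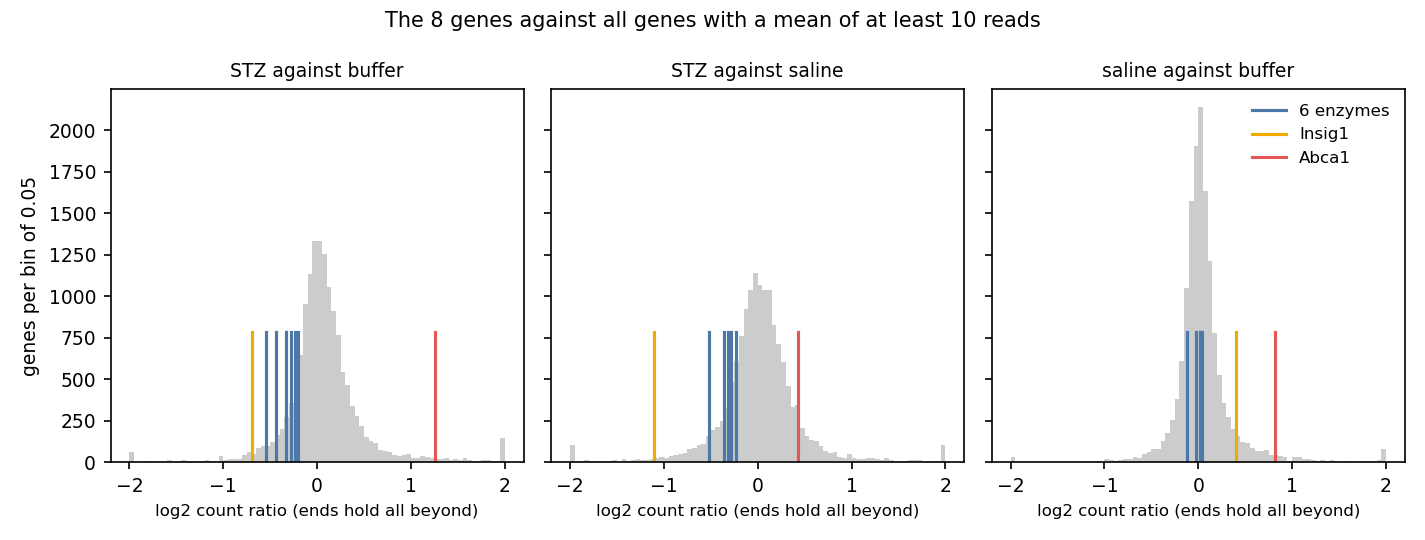
Number of genes in bins of 0.05 of the log2 count ratio, for genes with a mean of at least 10 reads, in each comparison, with values beyond 2 or below -2 in the end bins. Colored lines mark the 8 genes: the 6 enzymes lie left of the center in both STZ panels and within the central peak between the controls, and Abca1 lies to the right in all 3.

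The other enzymes of the pathway were less uniform than the 6 members. The members and lists were chosen with earlier results of these data known, so this contrast is a description and no independent test. Of 15 further enzymes from acetoacetyl-CoA to cholesterol, 6 were lower in STZ than in buffer by the counting interval, 1 was higher and 8 were not separated, with a median ratio of 0.904. Against saline 8 were lower and 2 higher, with a median of 0.843. Of all tested genes, 18.8% were lower and 26.2% higher than in buffer, and 23.5% lower and 26.9% higher than in saline. Most of the 15 had a mean of at least 500 reads, and at that depth the shares were 26.3% and 29.2%, and 30.5% and 32.0%. The 6 that were lower than both controls included Cyp51.

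Cyp51, the lanosterol demethylase, had 2816, 2794 and 2305 reads and ratios of 0.817 (0.773 to 0.864) and 0.823 (0.779 to 0.870). Both values lay within the range of the 6 member enzymes.

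Tm7sf2, which encodes a sterol C14 reductase, went the other way from low levels, with 126, 120 and 169 reads and a ratio of 1.34 against buffer (1.06 to 1.70). Ebp, another of the 15, had 289, 232 and 321 reads. It was higher than saline, at 1.38 (1.16 to 1.64), and not separated from buffer, at 1.11 (0.943 to 1.30). Fdps, which encodes farnesyl diphosphate synthase and was the most abundant of the 15 by FPKM, had 2253, 2216 and 2173 reads. Its ratio of 0.963 against buffer had an interval of 0.907 to 1.02, so a difference as large as that of any of the 6 members lay outside it. Lower values were thus not shared by every enzyme of the pathway. Over all 21 enzymes, members included, 12 were lower than buffer, 1 was higher and 8 were not separated.

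**Figure D4:**
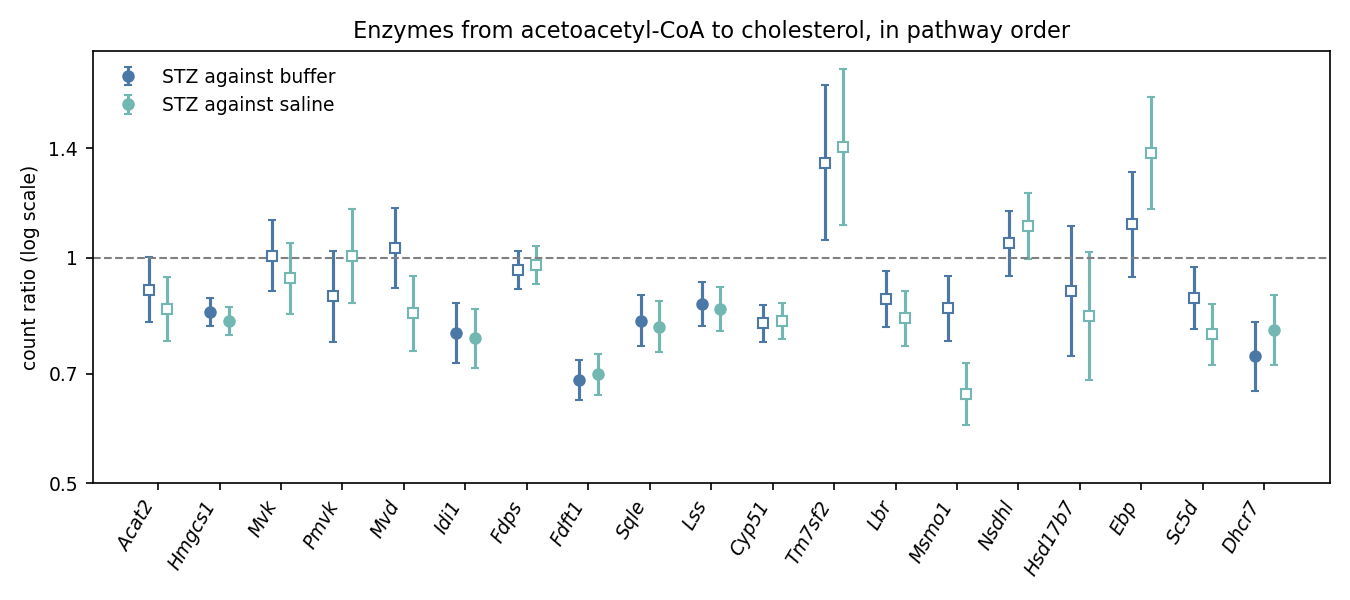
Count ratio (log scale) of STZ to buffer and of STZ to saline for enzymes of the pathway in their order, with 95% counting intervals, filled circles for the 6 members and open squares for other enzymes. Most points lie below 1, Tm7sf2, Ebp and Nsdhl lie above it in both comparisons, and Fdps lies close to it.

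Among the 9 genes of sterol sensing and SREBP processing, 3 were lower and 3 higher in STZ than in both controls, and the median ratio against buffer was 0.961. Of all tested genes, 14.8% were lower and 19.4% higher than both controls, which is also the background for the pathway lists below. Shares against each control were larger for genes with a mean of at least 500 reads, which all 9 reached. The share beyond both controls was not computed at that depth, so 14.8% and 19.4% are probably too low for well-covered lists. Srebf2, which encodes the SREBP that acts mainly on cholesterol genes, had 4753 reads in buffer, 5062 in saline and 2896 in STZ. Its ratio was 0.608 against buffer (0.581 to 0.637) and 0.571 against saline (0.545 to 0.598), and its folds of 0.618 and 0.579 passed the rule against both controls. Srebf1 had 2656, 2941 and 2169 estimated reads, partly fractional, with ratios of 0.815 and 0.736. Scap, the escort protein, had 2210, 2035 and 2595 reads and a ratio of 1.17 against buffer (1.11 to 1.24). Mbtps2, a protease that releases the SREBPs, had 820, 790 and 920 reads and a ratio of 1.12 (1.02 to 1.23). Mbtps1, the protease that makes the first cut and one of the 2 most abundant genes of the list, was lower, with 5783, 6110 and 5250 reads and a ratio of 0.906 (0.873 to 0.941). The transcripts of both SREBPs were thus lower in STZ, while those of the genes that process them were split.

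Uptake was represented by 12 genes, of which 3 were lower and 4 higher in STZ than in both controls, with a median ratio of 1.03 against buffer. Lrp8, an apolipoprotein E receptor of neurons and the most abundant of the 12 by FPKM, had 10445, 10594 and 10647 reads and a ratio of 1.02 (0.990 to 1.05).

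Stard4, which encodes a cytosolic sterol carrier, had 1147, 1318 and 849 reads and ratios of 0.739 and 0.643. Npc2, a lysosomal cholesterol carrier, had 900, 900 and 1205 reads, a ratio of 1.34 against buffer (1.23 to 1.46) and the same value against saline (1.22 to 1.46). Lipa, the lysosomal acid lipase, had 600, 557 and 745 reads and ratios of 1.24 and 1.33. Npc1, the lysosomal membrane transporter that works with Npc2, had 1458, 1422 and 1488 reads and was not separated from either control, with ratios of 1.02 (0.947 to 1.10) and 1.04 (0.970 to 1.12).

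In the list of efflux, LXR and storage genes, 4 of 10 were higher and 2 lower in STZ than in both controls. Apoe, which encodes the main apolipoprotein of the central nervous system, had 961 reads for buffer, 1449 for saline and 3305 for STZ. Like Abca1 it was ordered buffer, saline, STZ, with ratios of 3.43 against buffer (3.19 to 3.69), 2.28 against saline (2.14 to 2.42) and 1.51 in saline against buffer (1.39 to 1.64). Abcg1, an exporter to lipoprotein particles, had 2396, 2551 and 2952 reads and a ratio of 1.23 (1.17 to 1.30). Soat1, which esterifies cholesterol, had 167, 173 and 219 reads and a ratio of 1.31 (1.07 to 1.61). Rxra, the partner of LXR, was lower, with 750, 684 and 579 reads and a ratio of 0.771 (0.690 to 0.860).

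The branches beside sterol synthesis held genes on both sides. Of 6 genes of non-sterol isoprenoid branches, 0 were lower and 2 higher in STZ than in both controls, namely Fntb, a protein farnesyltransferase subunit, at 1.22 against buffer (1.12 to 1.34), and Dhdds, of dolichol synthesis, at 1.21 (1.14 to 1.28). Fnta, the shared alpha subunit of the prenyltransferases, had a ratio of 1.02 against buffer (0.944 to 1.10) and was lower than saline, at 0.874 (0.813 to 0.941). Ggps1, which makes geranylgeranyl diphosphate, was likewise lower than saline only, at 0.880 (0.807 to 0.958), with partly fractional counts. Of 9 fatty acid synthesis genes with enough reads, 3 were lower and 2 higher than both controls, and the median ratio against buffer was 0.934. The largest of these differences was that of the desaturase gene Fads1, with 2786, 2659 and 2254 reads and a ratio of 0.808 (0.764 to 0.854). Scd2, the most abundant of the list, had a ratio of 0.919 (0.905 to 0.933), with partly fractional counts, and Fasn, the fatty acid synthase, one of 0.934 (0.912 to 0.956). Acaca and Acly, which make malonyl-CoA and cytosolic acetyl-CoA, had ratios of 1.07 (1.02 to 1.13) and 1.04 (1.02 to 1.07).

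Over the 61 pathway genes outside the members with a mean of at least 10 reads, 18 were lower and 18 higher than in buffer, a split of 13 higher and 23 lower when TMM factors scaled the libraries. Against saline 23 were lower and 19 higher. The median ratio of the 61 was 1.02 against buffer, close to that of all genes.

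Genes of other cell types also differed among the libraries. The background for the marker counts is that of all tested genes, of which 18.8% were lower and 26.2% higher than in buffer. Higher than both controls were 19.4%, and 15.9% were higher in saline than in buffer. All 10 microglia genes were higher in STZ than in both controls by the counting interval, with summed CPM of 64.2, 79.9 and 182 in buffer, saline and STZ and ratios against buffer from 1.59 to 4.99. None of the 10 was at 0 in any library. The order of the sums was that of Abca1 and Apoe, and the lens sums had the same order. The Müller glia sums without Dkk3 also had it, but that list holds Apoe itself, at 43.7, 65.9 and 150 CPM, so they are no separate likeness. Within the microglia list, Cx3cr1, with 82, 71 and 233 reads, and P2ry12, with 81, 78 and 129, had fewer reads in saline than in buffer. In saline against buffer 5 of the 10 were higher and 0 lower, with a median ratio of 1.23 and a range from 0.866 for Cx3cr1 to 1.75 for Tyrobp, beside 1.77 for Abca1. The part of microglia in the Abca1 and Apoe values was not tested.

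Of the 8 proliferation genes, 6 were lower and 1 was higher in STZ than in buffer, and none was at 0. Their summed CPM was 3073 (buffer), 3094 (saline) and 2264 (STZ), beside 546, 549.6 and 438 for the 6 enzymes. The ratio of STZ to buffer was 0.737 for the proliferation sum and 0.801 for the enzyme sum, and that of saline to buffer was 1.01 for both. Ccnd1 held 45.1% of the reads of the proliferation list in buffer and had 30498, 30728 and 18626 reads, and the sum of the other 7 genes had a ratio of STZ to buffer of 0.842. Mki67 had 14620, 14608 and 10042 reads, whereas Top2a had 10953, 10390 and 10495 and Ccnb1 was higher in STZ, with 1950, 2038 and 2560. The part of proliferating cells in the enzyme values was not tested.

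Glial markers were mixed and vascular markers lower in STZ. Of the 7 Müller glia genes 3 were lower and 3 higher than in buffer, with Apoe among the higher, and their summed CPM was 3289, 3392 and 2845. Dkk3 held 73.1% of those reads in buffer, and the other 6 genes summed to 883, 905 and 928 CPM. Apoe was among these 6, at 43.7, 65.9 and 150 CPM. Of the rest, Rlbp1 and Sox9 were lower than in buffer, with ratios of 0.785 and 0.616. Glul and Slc1a3 were higher, at 1.05 and 1.04, and Aqp4 was not separated. Of the 4 astrocyte genes with enough reads 3 were lower and 1 higher, and the 5 listed summed to 41.6, 46.0 and 36.4 CPM, with Gfap at 338, 410 and 214 reads and Aldh1l1 at 0, 1 and 0. Endothelial genes, 5 of 6 lower, summed to 620, 683 and 459 CPM, of which Kdr held 96.5% in buffer. The other 5 endothelial genes summed to 22.0, 19.97 and 6.67 CPM, a ratio of STZ to buffer of 0.304, and the median ratio of the list was 0.405. All 5 pericyte genes were lower, with sums of 19.8, 18.3 and 7.13. The pigment epithelium sum was 43.8, 92.8 and 44.5 CPM, highest in saline, with Rpe65 at 0, 2 and 2 reads. The part of any of these cells in the values of the 8 genes was not tested.

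**Figure D5:**
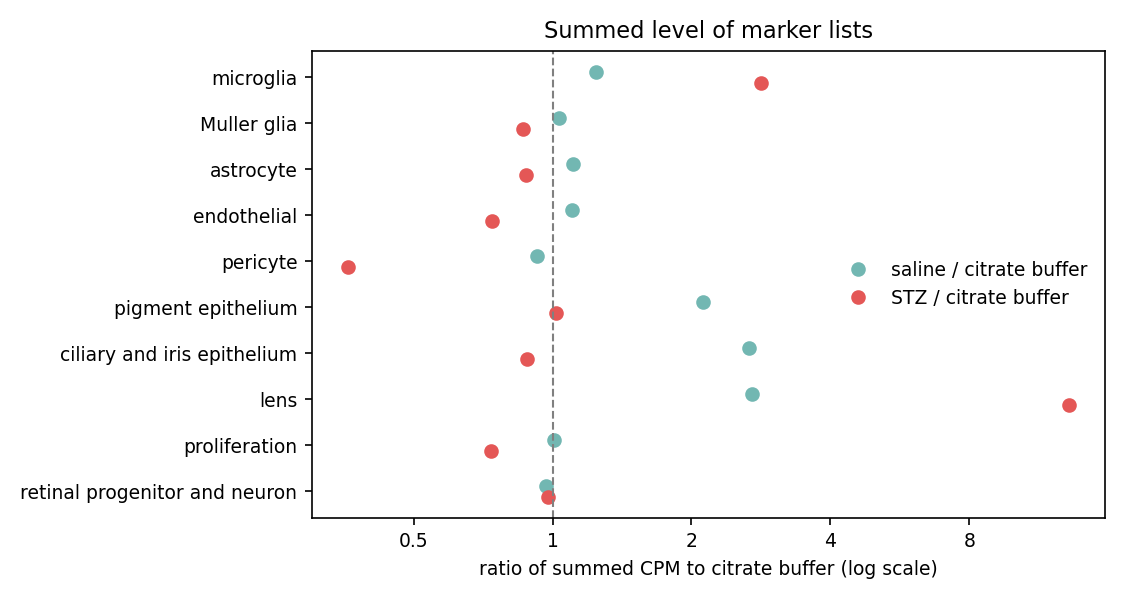
Ratio of the summed CPM of each marker list to that in the buffer library (log scale), for the saline and STZ libraries, 1 library each. The microglia sum in STZ was 2.84 times that in buffer and the lens sum 13.1 times, while the ciliary and iris sum was 2.66 times that in buffer in saline. The endothelial and Müller glia sums are carried by Kdr and Dkk3.

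The pattern of the 7 members other than Abca1 was not rare. Among 5675 other genes with a mean of at least 1000 reads, 193 lay within a Euclidean distance of 0.1 of their mean profile, in centered log2 CPM over the 3 libraries, and the members themselves had a median distance of 0.124. The nearest were Dhx32, Cdc42ep4, Fbxl14, Wbp11 and Brca1, at distances from 0.00244 to 0.0167. Abca1 had no gene within 0.1 of its profile, and the nearest were Aen at 0.355, Grn at 0.409, Crabp1 at 0.420, Ptp4a3 at 0.430 and Dab1 at 0.446. With 3 libraries such likeness is a description of 3 values.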

How the data were processed

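Total retinal RNA from 3 libraries was prepared with an Illumina TruSeq kit. The authors trimmed the reads, mapped them with TopHat2 (build rn6 by the submitters' processing notes), discarded reads with several locations and calculated FPKM with an R script. The annotation is not given in the sources used here. They deposited FPKM, TPM and an estimated count per gene and library. Of the estimated counts, 12.9% to 13.2% per library are fractional, and all were rounded. The counts of the 8 genes are whole. The tables per library and the joint table hold the same values.

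Count ratios had exact Clopper-Pearson intervals, FPKM exact Poisson intervals. The libraries carry no molecular identifiers, PCR copies cannot be recognised, and both intervals cover counting error only. Summaries used genes whose mean over the libraries reached 10 counts. Each condition has 1 library, so there was no model across genes, no leave-one-out value and no p-value. The members and lists were chosen with earlier results of these data known. Genes named from a list were those with intervals on the same side of 1 against both controls, up to 4 by size, and the 2 most abundant by FPKM, besides the 5 genes nearest in pattern and the markers. Some genes that this rule names are not reported here, although the counts and medians of the lists include them. Npc1, Ggps1, Ebp, Nsdhl and the marker sums without their most abundant gene were added after their values were seen. The interval calculation was tested on simulated data.

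Alternatives were TMM factors of edgeR 4.0.16 and median-of-ratios factors of DESeq2 1.42.0 (R 4.3.3), deposited TPM or FPKM in place of counts, CPM, a pseudocount of 0.1 in place of 1, thresholds of 2 and 0.5 or of 1.2 and its inverse, no minimum or a minimum mean of 50 counts, 99% intervals and the mean of both controls. Python 3.11.15, numpy 2.4.6, pandas 2.3.3, scipy 1.17.1 and matplotlib 3.10.9 were used. Promoter sequences and their GRCr8 coordinates are those of RefSeq, whose build is not that of the files.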

Additional observations from a re-analysis of the deposited data

How the results depend on the processing

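The median log2 count ratio of the 8 genes kept its sign under all scalings and units tried, from -0.35 to -0.31 in STZ against buffer and from -0.33 to -0.31 in STZ against saline. In saline against buffer it lay between 0.002 and 0.026. The numbers past the fold rule followed the thresholds. With 2 and 0.5, 0 members were higher and 0 lower in STZ against buffer and 0 higher in saline against buffer. In STZ against saline 1 member, Insig1, was still lower at these thresholds and 0 were higher. With 1.2 and its inverse, 5 were lower in STZ against buffer, 6 lower and 1 higher in STZ against saline, and 2 higher in saline against buffer. With the mean of both controls, 0 were higher in STZ, because Abca1 was higher in saline than in buffer. Over all genes the pseudocount of 0.1 moved the numbers from 415 higher and 191 lower to 1432 and 831 in STZ against buffer, from 375 and 322 to 1265 and 1270 in STZ against saline, and from 185 and 79 to 1113 and 541 in saline against buffer. Thresholds of 2 and 0.5 gave 166 and 52, 130 and 85, and 72 and 28 in the same order, thresholds of 1.2 and its inverse 2223 and 1321, 2333 and 1924, and 1134 and 567, and deposited TPM 575 and 513 in STZ against saline and 350 and 130 in saline against buffer. TPM also gave 304 lower in STZ against buffer. Deposited FPKM put the Abca1 ratio of STZ to buffer at 2.17 and TPM at 2.17, against 2.38 from counts. Of the other pathway genes in saline against buffer, 16 were higher and 8 lower, which became 13 and 13 with TMM and with median-of-ratios factors, and 10 were higher with 99% intervals. In STZ against buffer the split of 18 higher and 18 lower became 13 and 23 with TMM and 14 and 23 with median-of-ratios factors. The scaling shifted the median of all tested genes by less than 0.1 on the log2 scale. No paired analysis was possible because each condition has 1 library. The effects of treatment, of the animals used and of dissection cannot be told apart, and buffer and STZ retinas may share animals that saline retinas do not. At this depth the genes under 100 reads had wide intervals.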
